A study of Mus musculus with 2 samples.

Results

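The mouse gene Zc3h10 encodes the CCCH zinc finger protein that was tagged and expressed in this experiment, and its own locus was covered by 1 of the 947 deposited peaks. The peak was chosen by position: it is the peak that overlaps a window of 15001 bases on chromosome 10 of mm9, given as the place of Zc3h10. No annotation of mm9 was used here, so the identity of the window was not checked against exons, introns or untranslated regions. The locus was proposed for a closer look with its values known, and all values below are descriptions of a single peak without a test.

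The data came from C2C12 cells, a line of mouse myoblasts, in 2 RNA immunoprecipitation sequencing (RIP-seq) libraries. In the Flag-Zc3h10 library an adenovirus deleted for E1 and E3 carried the mouse Zc3h10 cDNA with an N-terminal Flag tag behind the CMV promoter, and RNA was recovered on anti-Flag agarose beads. In the GFP library, labelled wildtype, the virus carried GFP behind the same promoter; the antibody label of this library reads none, although the bead step is described for each RIP sample. In both groups the virus stayed on the cells for 48 h, at 5 infectious units per cell. Complementary DNA was made with oligo(dT) primers from 10 ng of RNA per library. Each group had 1 library, so no value has a replicate error. The list names no genes, so myoblast markers were not checked. After removal of duplicates 10439835 tags (aligned reads) remained in the Flag-Zc3h10 library and 10849213 in the GFP library.

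CCCH zinc fingers are small zinc-binding folds, known in several proteins for contacts with single-stranded RNA. A cDNA delivered by a virus is transcribed from the vector, but its reads align to the exons of the same gene in the mouse genome. Signal at this locus may therefore come from RNA of the virus, from RNA of the cell's own gene or from both, and the list does not hold the reads that would separate them.

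At the Zc3h10 locus more signal was found with Flag-Zc3h10 than with GFP. The list holds only regions called as higher than GFP (the lowest fold enrichment is 1.22), so this direction was fixed by the calling and does not check the overexpression label. The peak spanned chr10:127980931-127982740, a width of 1810 bases, with its summit at 127981796. The pileup, which is the number of extended tags over the summit in the Flag-Zc3h10 library, was 601 (95% exact Poisson interval 554 to 651, which covers counting error only). The level expected there from the GFP library, computed as pileup divided by fold enrichment, was 78.9. Before scaling to the smaller library this control level corresponds to 82.0 GFP fragments. The fold enrichment was 7.62 (7.02 to 8.25 for the counting error of the pileup alone, with the control level held fixed). The caller's −log10 p was 305.81 and its −log10 q 298.74. These compare the 2 libraries and not the conditions.

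The GFP library was far from empty at this locus. Its level of 78.9 was 28.3 times the genome-wide background of 2.79 fragments, so the locus or its surroundings gave reads in cells that did not receive the Zc3h10 virus. The file does not say whether the level was set by the summit itself or by the surrounding 1000 or 10000 bases. The control level of the locus was not far from the middle of the list, above that of 60.1% of the other 946 peaks, whose median was 50.9. In the Flag-Zc3h10 library it stood higher, with a pileup above 94.5% of the others (median 122). The fold enrichment was above 92.8% of the others (median 2.80), and the −log10 p was above all but 1 of them.

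**Figure D1:**
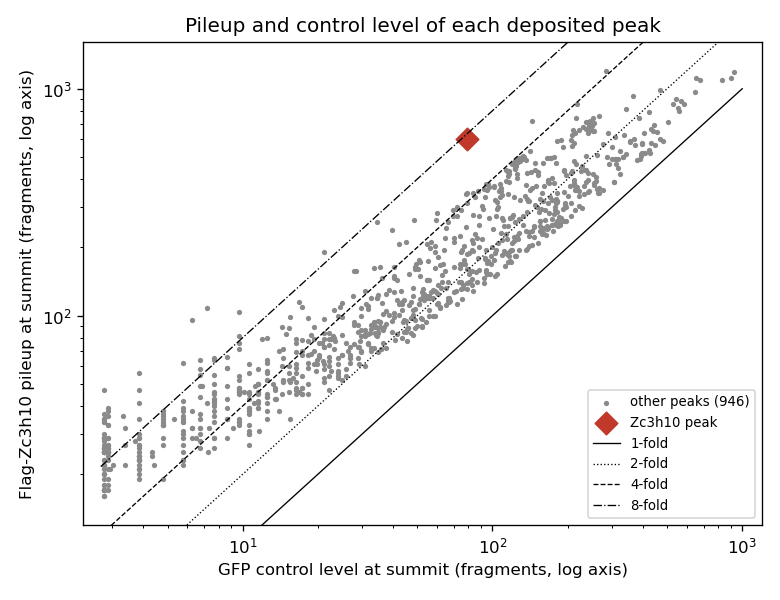
Each point is a deposited peak, with the Flag-Zc3h10 pileup at its summit on the y axis. The x axis is the control level expected there from the GFP library, which need not be a GFP count at the summit itself. Both are in fragments on log axes, and lines mark equal fold enrichment. The Zc3h10 peak (diamond, 601 over 78.9) lies close to the 8-fold line at a pileup where no other peak exceeds 5.04-fold.

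No other peak of the list was at least as high as the Zc3h10 peak in both pileup and fold enrichment. This trait is not particular to the locus. It also held for chr2:98506031-98507906, which had the highest pileup of the list, and for chr9:3005807-3038638. How many peaks share it was not counted. The other 52 peaks with a pileup of 601 or more had fold enrichments between 1.23 and 5.04 (median 2.56). The other 68 peaks with a fold enrichment of 7.62 or more had pileups of 22 to 191, with a median of 30.0, and their control levels reached at most 21.2. At 27 of those 68 the control level lay within 0.02 fragments of the genome-wide background, where the ratio is a lower bound. Over the whole list 26.0% of peaks reached 4-fold, 63.8% reached a −log10 q of 10 and 9.08% reached a pileup of 500, and the Zc3h10 peak met each of these limits. Besides it, 2 peaks had both a pileup of at least 500 and at least 4-fold enrichment. These were chr2:98506031-98507906, with 1202 fragments at 4.21-fold, and chr9:3005807-3038638, with 723 fragments at 5.04-fold.

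The excess of fragments, the pileup less the control level, was 522 at the Zc3h10 summit, against a median of 66.0 over the other peaks. A larger excess was found at 5 peaks, which were looked up after their values were seen. The excess was 916 at chr2:98506031-98507906, 640 at chr9:2999877-3005238 and 580 at chr9:3005807-3038638. It was 563 at chr12:81268196-81270045 and 528 at chr15:36537679-36539108. Repeated sequence was not checked at any of these peaks. Each of these 5 had another peak within 3580 bases, whereas the Zc3h10 peak had none within 10000 bases. Among the other 549 peaks without a neighbour within that distance the largest excess was 493, at chr13:21904916-21910560, a region 5645 bases wide and 2.84-fold enriched.

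Peaks of like size were enriched less. The 50 peaks nearest in pileup (517 to 699 fragments) had fold enrichments between 1.22 and 3.75 (median 2.02) and control levels of 141 to 480. The Zc3h10 enrichment was 3.77 times that median. Its control level lay under all 50, which at a like pileup restates the same result, since control level is pileup over fold enrichment. The 50 peaks nearest in control level (71.3 to 87.6 fragments) had fold enrichments between 1.53 and 4.41 (median 2.26) and pileups of 112 to 353. At a like level in the GFP library, the Zc3h10 pileup was thus 3.48 times the median pileup of 172.5. The 50 peaks nearest in width (1649 to 1977 bases) had a median of 3.13-fold, and 3 of them exceeded the Zc3h10 peak. Those 3 were chr14:69866115-69867887 (14.96-fold), chr17:26406131-26408003 (10.81-fold) and chr13:56389638-56391609 (9.02-fold), with pileups of 108, 104 and 191.

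**Figure D2:**
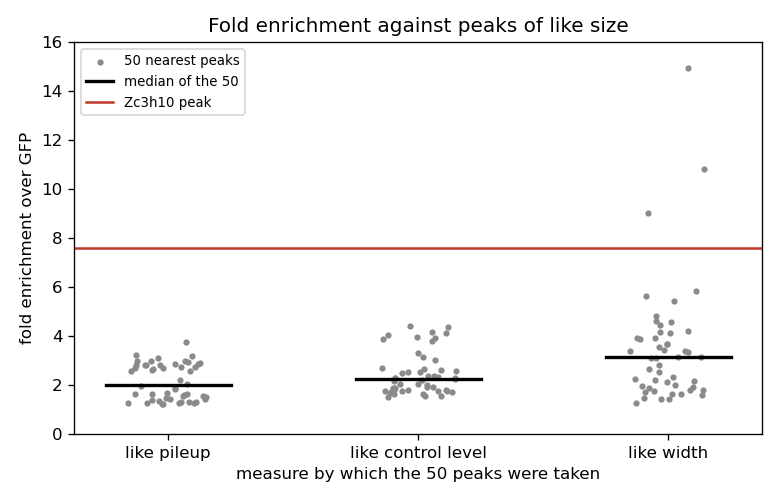
Fold enrichment over GFP (y axis) of the 50 peaks nearest to the Zc3h10 peak in pileup, in control level and in width (3 columns of points, spread sideways at random), with the median of each 50 as a black bar. The red line is the Zc3h10 peak at 7.62-fold: all points of the first 2 columns lie under it, with medians of 2.02 and 2.26, and 3 points of the width column lie over it.

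The 5 peaks most like it in width, pileup and control level together all had lower pileups and higher control levels. Their widths were 1532 to 1988 bases, their control levels 83.8 to 141 and their pileups 346 to 530. Their fold enrichment was 3.67 to 4.13. It is the ratio of pileup to control level, so its lower value follows from these and is no separate result. All 5 had a neighbouring peak within 1301 bases, and the Zc3h10 peak had none within 10000 bases. Standing alone is not particular to it, since 550 of the 947 peaks (58.1%) had no neighbour within that distance. The same held for 42 of the 85 others with a pileup of at least 500.

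In width the locus was less set apart than in height. Its 1810 bases were above 84.4% of the other peaks, whose median was 869 bases, but among the 85 others with a pileup of at least 500 it was near the middle, above 51.8% (median 1737). The coding sequence of the expressed Flag-Zc3h10 is about 1300 bases long, a rounded figure that no sequence used here allowed to be checked. Coding length plus 1 tag extension of 500 bases comes to 1800, and the peak was 10 bases wider. The rounding of the coding length alone leaves 50 bases either way. The next wider and the next narrower peak were chr5:44530081-44531890, also 1810 bases, and chr10:116398762-116400549, with 1788 bases. At the first of these the pileup was 371 and the fold enrichment 3.67, and at the second 114 and 4.56.

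A width near 1800 bases was not restricted to the Zc3h10 locus. Within 50 bases of that figure lay 12 other peaks (1.27%, exact interval 0.657% to 2.21%), 7 of them without a neighbour within 10000 bases. Their pileups ran from 76 to 928 with a median of 176.5, and their fold enrichment from 1.70 to 14.96 with a median of 3.67.

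The width also fixes the length of the RNA only loosely. Tags of 51 bases that are extended to 500 in their reading direction, as MACS does, can reach 449 bases beyond each end of the stretch they come from. A stretch of 1300 bases can then be covered over up to 2198 bases, 388 more than observed, and the shortest stretch that could fill 1810 bases is 912 bases. Extended tags at the outer ends may stay under the caller's threshold, so a longer stretch is possible too. RNA from the virus and RNA from the cell's own gene therefore cannot be told apart by the width, since the list holds no coverage per base, no splice junctions and no reads of the vector or tag.

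**Figure D3:**
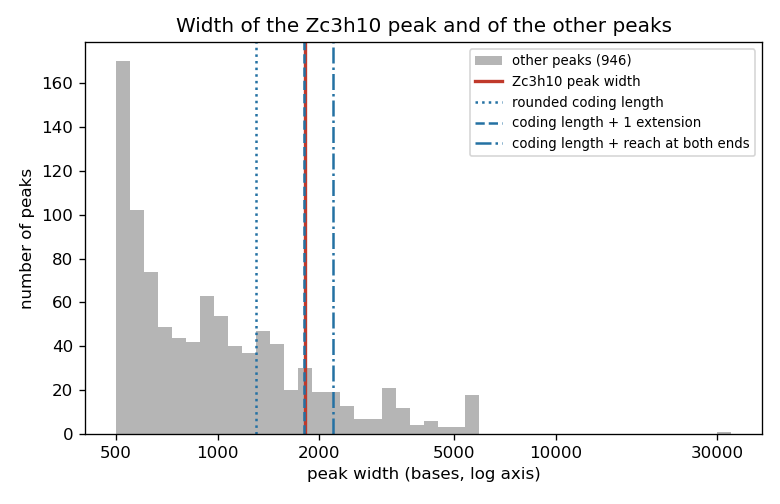
Number of peaks (y axis) by width in bases (x axis, log) for the other 946 peaks, with the Zc3h10 peak as a red line at 1810 bases. Blue lines mark the rounded coding length of 1300 bases, that length plus 1 tag extension (1800, nearly hidden by the red line) and that length plus the reach of tags at both ends (2198).

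The summit of the Zc3h10 peak lay near its middle, 865 bases from the lower end and 944 from the upper end, or 47.8% of the width from the nearer end. Among the 96 other peaks 1500 to 2200 bases wide this share had a median of 38.2% and quartiles of 32.3% and 44.4%, and 13 of the 96 had a summit at least as central. Among the 85 others with a pileup of at least 500 the median was 32.2%. The annotated strand and exon borders were not placed on mm9, so the side that holds the 3′ end of the transcript is not given.

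The rest of the window held no other peak. The single peak covered 12.1% of the 15001 bases, with 5931 bases of the window below it and 7260 above. Widening the window by 10000 bases on each side added no peak. The nearest peak, chr10:127496210-127496750, lay 484180 bases away and reached 140 fragments at 2.24-fold. Beyond it came chr10:126608357-126609096 with 156 fragments at 1.82-fold and chr10:126607044-126607634 with 43 fragments at 3.16-fold. No peak was listed on chromosome 10 above the Zc3h10 peak. Being alone was common in the list, where 550 of 947 peaks (58.1%) had no neighbour within 10000 bases, and among the 85 others with a pileup of at least 500 it held for 42.

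The RefSeq gene table of GRCm38.p6 was used for gene order only, and only its protein-coding genes were taken. Among these, Zc3h10 stands between Esyt1 and Rpl41, a ribosomal protein gene. Esyt1 encodes a protein that tethers the endoplasmic reticulum to the plasma membrane. Next in order are Myl6b and Myl6, which encode myosin light chains, on the side of Esyt1, and Pa2g4 and the receptor gene Erbb3 on the side of Rpl41. In that order Esyt1, Myl6b and Myl6 lie below Zc3h10, on the side of the 484180 bases without a peak. Rpl41, Pa2g4 and Erbb3 lie above it, where no peak was listed. Which genes of the lower side fall within the 484180 bases on mm9 was not determined. A gene without a peak may still have reads in both libraries at like levels.

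Among the 41 other peaks of chromosome 10 the Zc3h10 peak had the highest −log10 p (the next was 134.68) and the largest excess (the next was 470). Higher pileups were found at 4 of them: 884 at chr10:70792920-70794296, 858 at chr10:79354451-79355028, 813 at chr10:110943385-110945933 and 657 at chr10:22454622-22460392. Their control levels were 570, 526, 343 and 221, and their fold enrichment was 1.55, 1.63, 2.37 and 2.97. A higher ratio was found at 1 of them, chr10:81614012-81614612, with 7.79-fold enrichment at a pileup of only 30. The 4 peaks with higher pileups on this chromosome also had higher control levels, the lowest 221 against 78.9 at Zc3h10. This follows from their higher pileups and lower fold enrichment and is no separate result.

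**Figure D4:**
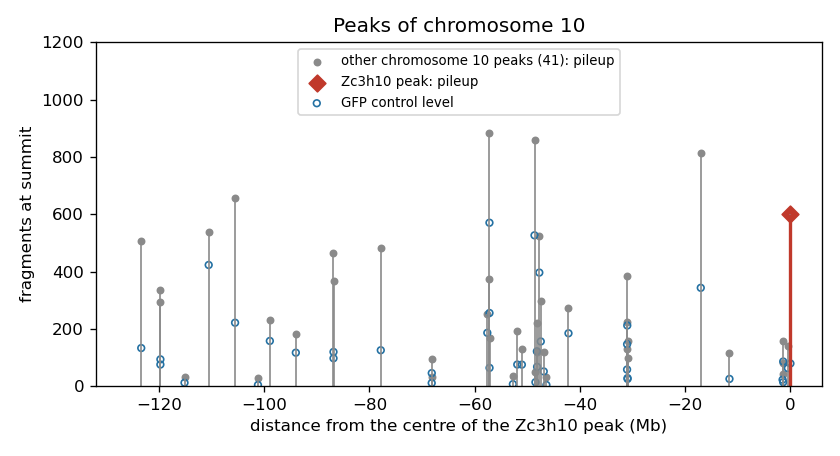
Pileup at the summit in the Flag-Zc3h10 library (filled points on stems) and control level expected there from the GFP library (open circles), both in fragments. The control level need not be a GFP count at the summit itself. The 42 peaks of chromosome 10 are placed by distance in Mb from the centre of the Zc3h10 peak. The Zc3h10 peak (diamond) is the last of the chromosome, and its gap between 601 and 78.9 is the widest shown.

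The caller's limits bear on the size of the ratio. At most 2 tags per position were kept, which left 32.6% of the tags in the Flag-Zc3h10 library and 30.3% in the GFP library. If the limit acts on each strand, as it does in MACS, tags extended to 500 bases can pile up to 2000 at most, and the Zc3h10 summit reached 30.1% of this. Reads beyond the limit at crowded positions were not counted in either library, so the 7.62-fold need not be the ratio of RNA amounts. Recovery of the RNA with the Flag-tagged protein, a higher amount of Zc3h10 RNA per cell and a larger share of cells with such RNA cannot be told apart in these bulk libraries, since no library of unselected RNA from the Flag-Zc3h10 cells was analysed here. The labels also do not settle whether beads were used for the GFP library. The control level of 78.9 may thus stand for RNA left on beads or for unselected RNA, and the 7.62-fold for a ratio of recoveries or of recovered over unselected RNA.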

How the data were processed

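Per the submitters' processing notes, the tools were TopHat2 2.0.6 for alignment to mm9 and MACS2 2.0.9 for peaks. The authors called peaks on 1 pair of libraries, with GFP as control, a q-value limit of 0.01, tags extended to 500 bases and at most 2 tags per position, per the file headers. The deposited signal is the pileup at the summit, the deposited ratio is the fold enrichment over the local GFP level, and each deposited −log10 value is the caller's p-value or q-value for that peak, per the file headers. Other deposited columns give positions and widths in bases of mm9.

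Control level (pileup over fold), excess, distances, ranks and sets of nearest peaks (on log2 scale) were computed with Python 3.11.15, numpy 2.4.6, pandas 2.3.3 and scipy 1.17.1, and plotted with matplotlib 3.10.9. Ranks were tested on simulated data. A Poisson tail at the control level gave a −log10 p of 305.03 for the Zc3h10 peak, against 305.81 deposited. Likeness over width, pileup and control level was the Euclidean distance of standardised log2 values. Where printed, the interval of a share is exact (Clopper-Pearson) at 95%, for counting error only. It takes the peaks as independent draws, which a full list with neighbouring peaks is not. The locus, the comparisons and the rule for naming peaks were chosen with earlier results of these data known. That rule takes the peaks of the window, the 3 nearest on each side, those at least as high in both pileup and fold, the 5 most alike, and the next above and below in pileup, fold, width and −log10 p. Peaks outside it were looked up after their values were seen. No sequence is printed, since none of mm9 or of the protein was used here.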

Additional observations from a re-analysis of the deposited data

How the results depend on the processing

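No paired analysis was possible because there was only 1 library in each group. The window held 1 peak by overlap, by summit and after widening. The share of other peaks below the Zc3h10 peak, 94.5% for pileup, 60.1% for control level, 92.8% for fold enrichment and 84.4% for width, depended on the peaks it was set against. With only peaks of −log10 q of at least 10 these shares were 91.5%, 56.6%, 89.2% and 76.3%. Without the loci 5500 to 6000 bases wide, pileup, control level and width gave 96.0%, 63.8% and 90.0%. The width share was 80.6% with peaks within 1000 bases merged and 88.5% among isolated peaks, a setting chosen after seeing the data. The fold enrichment exceeded that of all the nearest 25, 50 or 100 peaks in pileup and of the nearest 50 in control level, and 94.0% of those in width. The width exceeded coding length plus 1 extension by 10 bases and coding length alone by 510; against coding length plus the reach at both ends the difference was -388. The comparison with the length of the whole transcript was not run. With 1 library per group, neither the peak nor its ratio has a replicate check.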
